A study of Mus musculus with 11 samples.

Results

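The genes described here build, cross-link and contract the actin cytoskeleton, together with SRF (serum response factor), the transcription factor that many of them depend on. They were chosen by name: a list of 43 gene symbols was matched to the platform annotation, and a probe set (a group of short probes that reads 1 transcript) belonged to the list when its annotated symbol was exactly 1 of the names. Of 22690 probe sets on the array, 89 named a listed gene, of which 3 were Actb array controls. A probe set was found for 41 of the 43 genes, and 25 of the 41 had more than 1 besides the controls. Myh10 and Rock2 were not analysed here. Each gene was read by its brightest probe set, as was every other gene, which gave 12393 genes in all.

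The study measured messenger RNA on Affymetrix arrays in 4 groups of mouse JB6 cells, a line derived from epidermis, and its design asks whether reversible and irreversible growth without attachment share expression changes. The bFGF-JB6 groups were JB6 clone 41-5A, the parental cells under basic fibroblast growth factor (bFGF) according to their labels, with 3 arrays of attached monolayers and 3 of soft agar colonies. The RT101 groups were a tumour variant of JB6 that received no treatment, with 2 arrays of monolayers and 3 of soft agar colonies. The labels give 10 ng/ml bFGF for the parental cells in agar and harvest on day 7 for colonies of both lines. No dose or time is given for the bFGF-JB6 monolayers. All 4 groups were grown in the same serum-containing medium. Line and bFGF treatment changed together, so they cannot be told apart in any comparison between the lines. Loss of attachment cannot be told apart from time in agar or from colony growth. Each line is 1 clone or variant, and the labels leave it unsaid whether replicate arrays stem from separate cultures, so p-values measure only the spread between these arrays, which may be technical. In whole-culture RNA, fewer cells that express a gene and less RNA per cell cannot be told apart.

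Values are log2 signals, so a difference of 1 is a 2-fold change, and signals of different genes are not compared because probes differ in brightness. Array medians lay between 5.82 and 5.95, and arrays of 1 group correlated at 0.989 to 0.998. Array 1 of the bFGF-JB6 monolayers and array 3 of the bFGF-JB6 colonies stood apart in RNA quality controls: their Gapdh signal at the 3′ end exceeded the 5′ end by 0.19 and 0.35, against −0.08 to −0.01 on the other 9 arrays. Of 8 keratinocyte markers, 6 (Krt14, Krt18, Cdh1, Epcam, Trp63 and Dsp) were at or below the arrays' lower quartile in every group and Krt5 and Krt8 were above it, with summed signals of 121 to 150 on the linear scale and none called in any comparison. Mesenchymal markers were far brighter and moved with state and line: their summed signals were 15400 to 16100 in bFGF-JB6 monolayers, 17500 to 19800 in bFGF-JB6 colonies, 11300 to 11900 in RT101 monolayers and 13900 to 14400 in RT101 colonies. Of the 6, Col1a1, Fn1 and Pdgfrb rose in colonies of both lines, Col1a2 rose and Vim fell in bFGF-JB6 colonies, and Thy1 was at or below the lower quartile throughout. Of 5 smooth muscle markers, Myh11 and Myocd were at or below that quartile and Des, Smtn and Synpo2 above it. Their summed signals were 223 to 251 and 234 to 248 in bFGF-JB6 and RT101 monolayers and 190 to 202 and 191 to 201 in colonies, with Smtn called lower in colonies of both lines. Of 6 skeletal muscle markers, Mylpf and Myh4 were at or below the quartile and 4 above it, with sums of 90.8 to 108 and none called. Of 4 endothelial markers, 3 were at or below it, with sums of 49.7 to 64.5. The 8 macrophage markers had summed signals of 586 to 602 in bFGF-JB6 monolayers, 818 to 883 in bFGF-JB6 colonies, 271 to 272 in RT101 monolayers and 315 to 346 in RT101 colonies, with Ptprc, Adgre1 and Itgam at or below the lower quartile throughout. Their part in the results below was not tested.

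Actin exists as single subunits and as filaments, and cells move it between the pools with nucleators, monomer binders, severing proteins and caps. Myosin II pulls on filaments under control of the small GTPase RhoA and its kinase ROCK, and the resulting tension is passed to the substrate at focal adhesions. Single actin subunits hold the cofactors MRTF-A and MRTF-B in the cytoplasm, so when subunits are consumed into filaments these cofactors enter the nucleus and act with SRF. SRF binds a short DNA element called the CArG box, and many actin and contractility genes carry one.

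RefSeq promoter windows, from 250 bases before to 50 bases after a gene's start in GRCm38.p6, were matched for 38 of the 43 genes by symbol. A CArG box was found on either strand in 10 of their 44 windows (22.7%) and in 535 of 32851 windows of all genes (1.63%). SRF targets were put on the list by name, so a higher share than that of all genes follows in part from that choice. The 9 genes with a box were Acta1, Actg1, Cnn2, Fhl1, Fhl2, Myl9, Rnd3, Srf and Vcl. The boxes are printed for the 8 of these genes that were called in at least 1 comparison, which leaves out Acta1. CArG boxes are the element that SRF binds, but binding to these boxes was not tested. Each runs 5′ to 3′ on the gene's own strand, with the box in capitals and 15 bases on either side.
Srf (chr17:46556200-46556259, minus strand): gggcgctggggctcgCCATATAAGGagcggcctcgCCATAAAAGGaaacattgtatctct
Myl9 (chr2:156775288-156775327, plus strand): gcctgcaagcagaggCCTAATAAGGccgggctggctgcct
Actg1 (chr11:120348561-120348600, minus strand): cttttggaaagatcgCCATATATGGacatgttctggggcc
Cnn2 (chr10:79988529-79988568, plus strand): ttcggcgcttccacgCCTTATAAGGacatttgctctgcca
Fhl1 (chrX:56779566-56779605, plus strand): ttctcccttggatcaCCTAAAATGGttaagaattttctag
Fhl2 (chr1:43163968-43164007, minus strand): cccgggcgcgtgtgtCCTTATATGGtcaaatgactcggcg
Rnd3 (chr2:51149187-51149226, minus strand): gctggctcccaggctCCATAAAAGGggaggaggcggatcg
Vcl (chr14:20929156-20929195, plus strand): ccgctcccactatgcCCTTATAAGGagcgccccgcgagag
Srf itself held 2 boxes, starting 82 and 62 bases before its start. Boxes of the other genes shown started 161 bases before the start for Myl9, 90 for Actg1, 56 for Cnn2, 102 for Fhl1, 31 for Fhl2, 100 for Rnd3 and 227 for Vcl. A second Fhl2 window held a further box. A match is a description of the letters and not evidence of binding, and a window without one, such as that of Acta2, shows only that these letters are not there.

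The first comparison sets agar colonies of parental JB6 cells against their attached monolayers, both under bFGF according to their labels. No parental cells without bFGF were measured, so it does not show what bFGF itself does. Of the 41 genes, 6 rose and 8 fell at a limma adjusted p of 0.05, together 34.1%, when 29.4% of all genes were called (14.1% up and 15.3% down). The genes that rose were Myl9, Pdlim5, Pfn2, Rnd3, Acta2 and Cnn1, and those that fell were Cnn2, Pfn1, Fhl2, Tpm2, Tagln2, Pdlim7, Tpm4 and Actn1. Only Myl9 reached a 2-fold change (2.44% of the 41, against 3.49% of all genes). The median change of the 41 was −0.06, beside 0.03 over all genes.

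In RT101 cells 8 genes rose and 8 fell in colonies, together 39% of the 41, when 32.4% of all genes were called (17% up and 15.4% down). Pfn2, Capg, Tpm1, Pdlim5, Actn1, Rnd3, Tpm2 and Rhoa rose, and Flna, Fhl1, Fhl2, Acta2, Rhob, Srf, Tpm4 and Rock1 fell. Only Pfn2 and Flna reached 2-fold (4.88%, against 5.79% of all genes). The median change was −0.03 and that of all genes −0.01. Most of these genes are bright, with 34 of 41 at or above the median gene level. Of all genes that bright, 44.7% were called in bFGF-JB6 and 51.9% in RT101, and of these 34 genes 35.3% and 44.1%. The shares of the 41 were a little above those of all genes, and those of the 34 were below those of genes that bright. Neither gap was tested. Levels were not matched: the median was 9.42 for the 41 and 6.30 for all genes.

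Across the 2 lines, the changes fell into different patterns. Pdlim5, Pfn2 and Rnd3 rose in colonies of both lines, and Tpm4 and Fhl2 fell in both (up in both lines held 5.7% of all genes and down in both 5.21%). Tpm2 and Actn1 fell in bFGF-JB6 and rose in RT101, a pattern of 2.85% of all genes. Only Acta2 took the reverse path, up in bFGF-JB6 and down in RT101, as did 1.59% of all genes. In neither line were 19 of the 41 genes called (53.6% of all genes). When the difference between the colony changes was itself tested, 14 of the 41 differed between the lines (34.1%, against 27.7% of all genes), 7 with the higher change in RT101 and 7 with the lower (15% and 12.7% of all genes). Of genes at or above the median level, 42.4% differed.

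**Figure D1:**
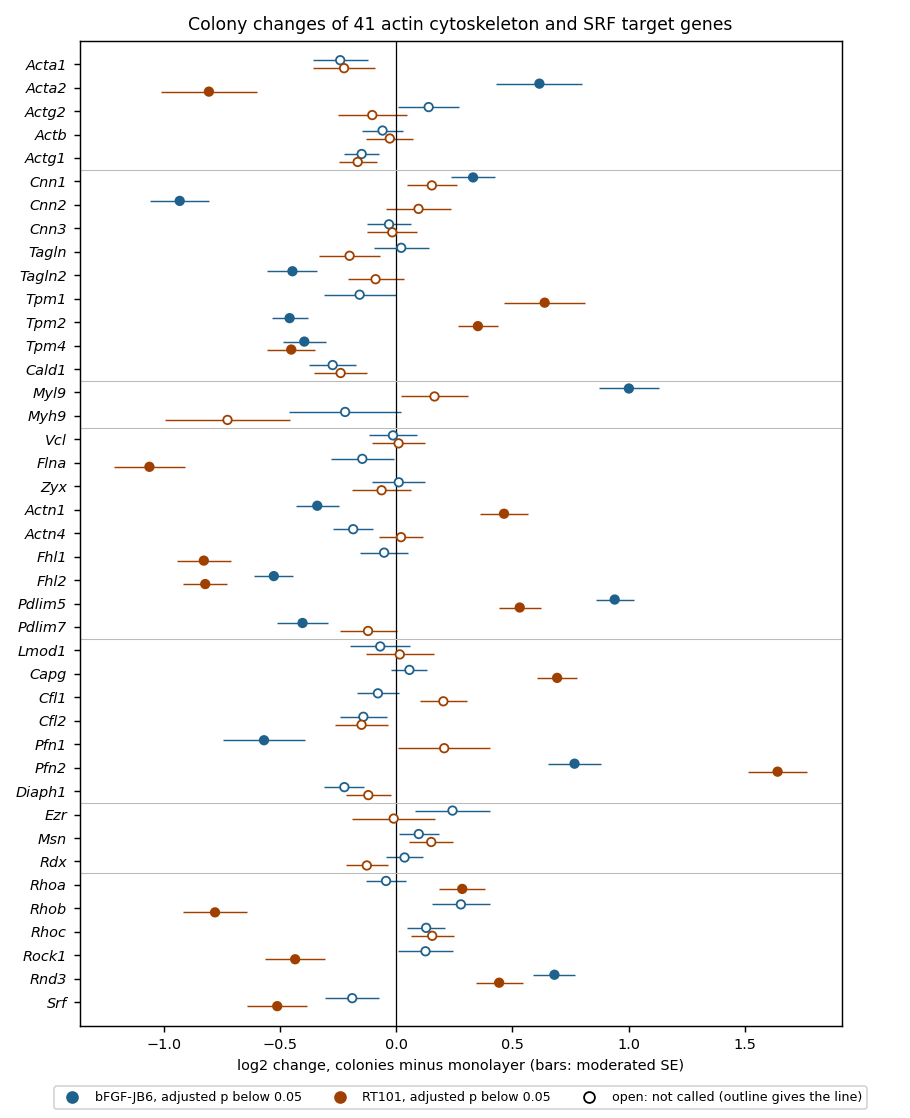
Log2 change from monolayer to colonies (x axis) for each of the 41 genes (y axis, grouped by role) in bFGF-JB6 and in RT101; points are limma estimates, bars their standard errors, and filled points passed an adjusted p of 0.05. Acta2 sits at 0.62 and −0.81 on opposite sides of 0, and Pfn2 at 0.77 and 1.64 on the same side.

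Among the actin isoforms, the muscle-type Acta2 moved and the cytoplasmic actins did not pass the test in either colony comparison. Acta2, the smooth muscle actin of contractile stress fibres, read 6.87, 5.96 and 6.47 in bFGF-JB6 monolayers and 6.80, 7.02 and 7.32 in their colonies. In RT101 it read 8.57 and 8.53 in monolayers and 7.63, 7.79 and 7.81 in colonies. Its colonies of both lines therefore lay closer to each other than the monolayers did: the bFGF-JB6 arrays overlapped between states at 6.80 and 6.87, and every RT101 array was above every bFGF-JB6 array. Acta2 rose by 0.62 in bFGF-JB6 colonies (SE 0.19, adjusted p = 0.022) and fell by 0.81 in RT101 colonies (SE 0.21, adjusted p = 0.0078), and the 2 changes differed by −1.42 (SE 0.28, adjusted p = 0.00158). The bFGF-JB6 call was lost without monolayer array 2 (0.38, adjusted p = 0.0917) or 3 (0.0501) or colony array 2 (0.0519) or 3 (0.0834), and the RT101 call without RT101 monolayer array 1 (0.0542) or with the mean of its probe sets (−0.31, adjusted p = 0.0872). The probe set can also read other actins, and a second, dim Acta2 probe set showed changes of 0.11 and 0.19, neither called.

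Beta-actin, Actb, the main cytoplasmic actin, read 13.34, 13.50 and 13.51 in bFGF-JB6 monolayers and 13.30, 13.32 and 13.55 in colonies. Its RT101 values were 13.51 and 13.46 in monolayers and 13.42, 13.51 and 13.44 in colonies, so all 4 groups overlapped. Changes were −0.06 and −0.03 (SE 0.09 and 0.10), and neither passed. Gamma-actin, Actg1, the other cytoplasmic isoform, read 13.11, 13.18 and 13.11, then 12.97, 12.95 and 13.03 in bFGF-JB6 monolayers and colonies. In RT101 it read 12.94 and 12.86 in monolayers, and 12.74, 12.72 and 12.74 in colonies. Colony arrays lay below monolayer arrays in both lines, by −0.15 (adjusted p = 0.158) and −0.17 (adjusted p = 0.155), which did not pass. Acta1 and Actg2, the skeletal and enteric smooth muscle isoforms, read 4.16 to 4.98 and 2.94 to 3.59 over the 11 arrays and were not called in either line.

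**Figure D2:**
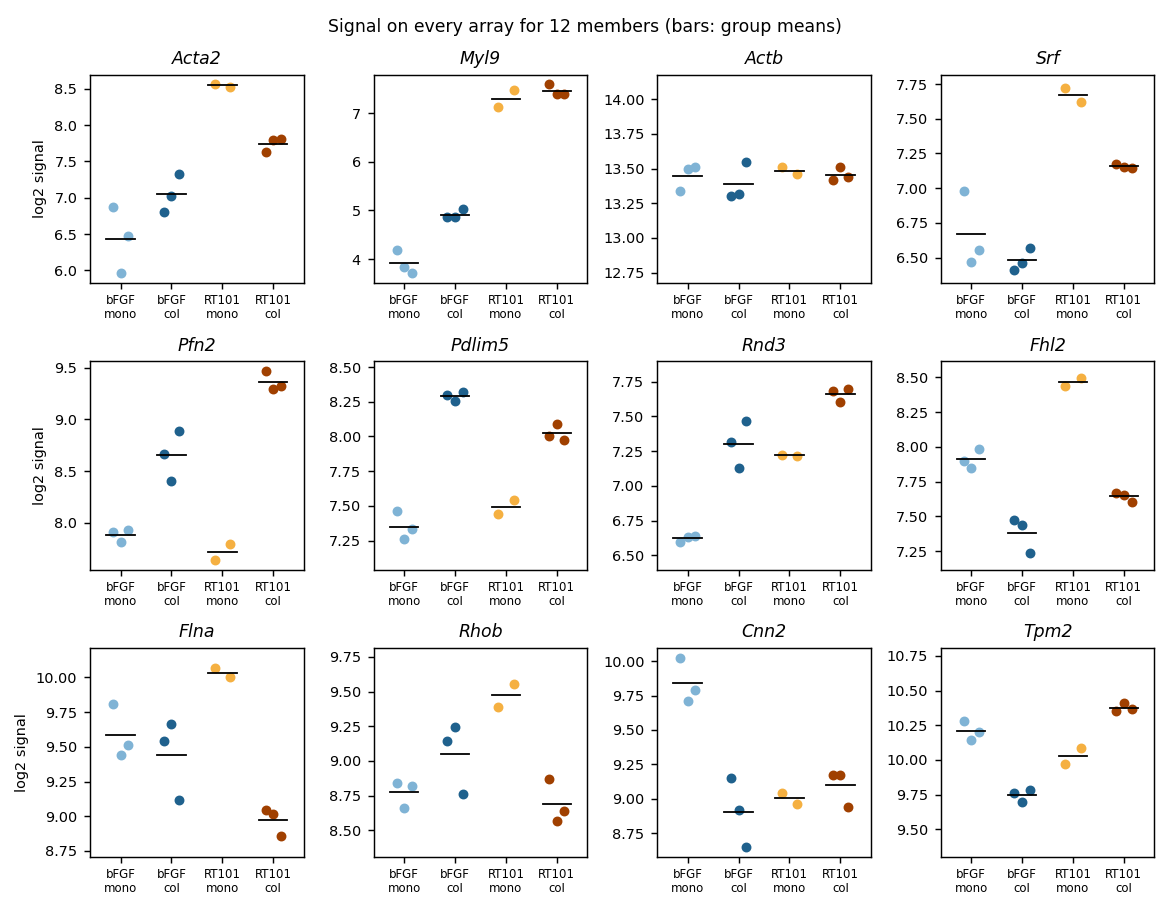
Log2 signal (y axis) of 12 genes on each array, in the 4 groups (x axis); points are arrays and bars group means. Acta2 shows the bFGF-JB6 monolayers lowest at 5.96 to 6.87 and the RT101 monolayers highest at 8.53 to 8.57, while Actb lies between 13.30 and 13.55 everywhere.

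Of 9 measured genes whose proteins coat actin filaments or tune their access to myosin, 4 fell in bFGF-JB6 colonies and Cnn1 rose. Cnn2, Tagln2, Tpm2 and Tpm4 fell, where 15.3% of all genes fell and 14.1% rose. In RT101, Tpm1 and Tpm2 rose and Tpm4 fell, where 17% of all genes rose and 15.4% fell. Cnn2, a calponin that binds filaments in non-muscle cells, read 10.02, 9.71 and 9.79 in bFGF-JB6 monolayers and 9.15, 8.92 and 8.65 in colonies, with no overlap. Its RT101 values stayed within 8.95 to 9.18 over both states. It fell by 0.93 in bFGF-JB6 (SE 0.13, adjusted p = 8.12e-05), the change in RT101 was 0.10 (adjusted p = 0.69), and the lines differed by 1.03 (SE 0.19, adjusted p = 0.00105).

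The tropomyosins lie along the filament groove and set which other proteins can bind. Tpm2 read 10.28, 10.14 and 10.20 in bFGF-JB6 monolayers and 9.76, 9.70 and 9.79 in colonies, but 9.97 and 10.08 in RT101 monolayers and 10.35, 10.41 and 10.37 in RT101 colonies. States separated completely in both lines and in opposite directions: −0.46 (SE 0.08, adjusted p = 0.000498) and 0.35 (SE 0.09, adjusted p = 0.00618), a difference of 0.81 (adjusted p = 0.000141). The 4 probe sets of Tpm2 were all called higher in RT101 colonies, whereas in bFGF-JB6 another of them was called lower and the dimmest was called higher (0.45). Averaging the probe sets took the bFGF-JB6 change to −0.18 (adjusted p = 0.165), and leaving out RT101 monolayer array 1 took the RT101 change to 0.29 (adjusted p = 0.0768).

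Tpm1 read 10.29, 10.54 and 10.69 in bFGF-JB6 monolayers, 10.66, 10.44 and 9.95 in their colonies, 8.79 and 9.03 in RT101 monolayers, and 9.58, 9.57 and 9.51 in RT101 colonies. RT101 monolayers were the lowest arrays and no RT101 array reached a bFGF-JB6 one. Tpm1 rose by 0.64 in RT101 colonies (SE 0.17, adjusted p = 0.0112; 0.52 with adjusted p = 0.121 without RT101 monolayer array 1), and the change in bFGF-JB6 was −0.16 (adjusted p = 0.51). The second probe set of Tpm1 gave 0.06 in bFGF-JB6, not called, and 0.54 in RT101 (adjusted p = 0.000688). The dimmest Tpm1 probe set was called lower in bFGF-JB6 colonies (−0.68, adjusted p = 0.00546) and gave −0.16 in RT101, not called. Tpm4 read 11.33, 11.40 and 11.41, then 10.81, 11.03 and 11.12 in bFGF-JB6, and 11.12 and 10.996, then 10.56, 10.67 and 10.59 in RT101. The step down was of like size in both lines, −0.40 (SE 0.09, adjusted p = 0.00483) and −0.45 (SE 0.10, adjusted p = 0.00348), and the test of their difference gave −0.06 (SE 0.14, adjusted p = 0.814).

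Tagln2, a transgelin of non-muscle cells, read 10.998, 10.96 and 10.97 in bFGF-JB6 monolayers and 10.58, 10.75 and 10.26 in colonies, and fell by 0.45 (SE 0.11, adjusted p = 0.00614). RT101 arrays read 10.64 and 10.58, then 10.55, 10.55 and 10.46, a change of −0.09 that did not pass. Cnn1, the smooth muscle calponin, gave weak signals on every array: 3.27, 3.41 and 3.22 in bFGF-JB6 monolayers and 3.69, 3.45 and 3.75 in colonies, and 3.15 to 3.41 in RT101. Its rise of 0.33 in bFGF-JB6 (SE 0.10, adjusted p = 0.0175) was lost without monolayer array 1 (0.052) or 3 (0.0757) or colony array 1 (0.0538) or 3 (0.0523). Tagln, the smooth muscle transgelin, read 4.55 to 5.08, and neither it nor Cnn3 was called in either line. The brightest probe set of Cald1, caldesmon, changed by −0.27 in bFGF-JB6 (adjusted p = 0.0595), while another of its probe sets was called lower there (−0.72, adjusted p = 0.000137).

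Of the myosin II chains, the regulatory light chain Myl9 gave the largest rise of the set in bFGF-JB6 colonies. Myl9 read 4.19, 3.84 and 3.71 in bFGF-JB6 monolayers and 4.86, 4.86 and 5.03 in colonies. RT101 cells read 7.12 and 7.47 in monolayers and 7.60, 7.39 and 7.39 in colonies. Colonies lay above monolayers without overlap in bFGF-JB6 and overlapped them in RT101. The bFGF-JB6 rise was 1.001 (2-fold; SE 0.13, adjusted p = 5.6e-05), the RT101 change 0.16 (SE 0.15, adjusted p = 0.463), and they differed by −0.84 (SE 0.20, adjusted p = 0.00531). The bFGF-JB6 monolayer signals sat near the arrays' lower quartile of 3.78 to 3.91, where this kind of signal understates folds.

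Myh9, the heavy chain of non-muscle myosin IIA, depended on a single array. Its brightest probe set read 11.50, 11.59 and 11.53 in bFGF-JB6 monolayers and 10.89, 10.97 and 12.10 in colonies, and 11.91 and 11.47, then 10.84, 10.99 and 11.05 in RT101. Array 3 of the bFGF-JB6 colonies, 1 of the pair with raised 3′ signal, was the highest of all 11. With it, the changes were −0.22 (adjusted p = 0.559) and −0.73 (adjusted p = 0.0543). Without it, Myh9 fell by 0.61 in bFGF-JB6 (adjusted p = 0.00177) and by 0.73 in RT101 (adjusted p = 0.000358). The other 3 Myh9 probe sets gave 0.22, −0.05 and −0.02 in bFGF-JB6, none called, and −0.04, −0.47 and −0.31 in RT101, of which −0.47 was called (adjusted p = 0.00613). A fall of Myh9 in bFGF-JB6 colonies thus appeared in 1 of 4 probe sets and only without that array.

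**Figure D3:**
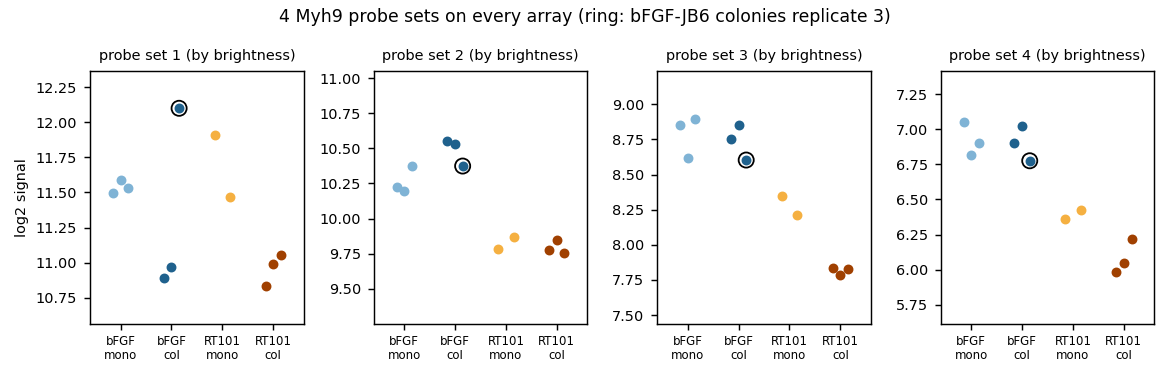
Log2 signal (y axis) of the 4 Myh9 probe sets on each array, in the 4 groups (x axis); each point is an array. In the brightest probe set, array 3 of the bFGF-JB6 colonies reads 12.10, above its 2 companions at 10.89 and 10.97.

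Cross-linkers and adhesion-linked proteins join filaments to each other and to the membrane. Of 9 of their genes measured, 1 rose and 3 fell in bFGF-JB6 colonies (14.1% and 15.3% of all genes). In RT101 2 rose and 3 fell (17% and 15.4%). Pdlim5, an adapter that ties protein kinase C to the actin cytoskeleton, read 7.46, 7.26 and 7.33 in bFGF-JB6 monolayers and 8.30, 8.26 and 8.32 in colonies. In RT101 it read 7.44 and 7.54 in monolayers and 8.004, 8.09 and 7.98 in colonies. Monolayer arrays of the 2 lines overlapped, and every colony array of either line lay above them. It rose by 0.94 in bFGF-JB6 (SE 0.08, adjusted p = 1.39e-06) and by 0.53 in RT101 (SE 0.09, adjusted p = 0.00044), less in RT101 by −0.41 (adjusted p = 0.0231). Of 6 other Pdlim5 probe sets, 1 was called higher in bFGF-JB6 colonies and none in RT101, and their mean took the RT101 change to 0.33 (adjusted p = 0.216). The difference was lost without any of bFGF-JB6 monolayer arrays 2 and 3, RT101 monolayer array 2 and RT101 colony arrays 1 and 3 (adjusted p = 0.0521 to 0.0946).

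Fhl2, a LIM-only cofactor found at focal adhesions and in the nucleus, read 7.90, 7.85 and 7.98 in bFGF-JB6 monolayers and 7.47, 7.44 and 7.24 in colonies. RT101 cells read 8.44 and 8.49 in monolayers and 7.67, 7.65 and 7.60 in colonies. Every monolayer array exceeded every colony array, of either line. The falls were 0.53 (SE 0.08, adjusted p = 0.000333) and 0.82 (SE 0.09, adjusted p = 1.43e-05), with a difference of −0.30 (SE 0.13, adjusted p = 0.107). Its relative Fhl1 read 2.89 to 3.19 in every group but the RT101 monolayers, at 3.94 and 3.77, and fell by 0.83 in RT101 colonies (SE 0.12, adjusted p = 8.28e-05), at the weak end of the scale.

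Flna, filamin A, which holds crossed filaments in a network, read 9.81, 9.44 and 9.52 in bFGF-JB6 monolayers and 9.54, 9.67 and 9.12 in colonies, with overlap. RT101 arrays read 10.06 and 10.01 in monolayers and 9.04, 9.02 and 8.86 in colonies, without overlap. Flna fell by 1.06 in RT101 (2.09-fold; SE 0.15, adjusted p = 9.3e-05), and its bFGF-JB6 change was −0.15 (SE 0.14, adjusted p = 0.48), a difference of −0.92 (SE 0.20, adjusted p = 0.00382).

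Actn1, the cross-linker alpha-actinin of stress fibres, moved the other way in RT101: 9.96 and 9.83 in monolayers and 10.33, 10.39 and 10.36 in colonies, a rise of 0.46 (SE 0.10, adjusted p = 0.00331). In bFGF-JB6 it read 9.96, 9.95 and 10.01, then 9.58, 9.48 and 9.83, a fall of 0.34 (SE 0.09, adjusted p = 0.0134). The lines differed by 0.80 (SE 0.14, adjusted p = 0.000678). The fall in bFGF-JB6 was not called without monolayer array 3 (0.0504) or colony array 2 (0.0589), and with the mean of its 3 probe sets the change was 0.09 (adjusted p = 0.727). Its difference between the lines was 0.43 with that mean (adjusted p = 0.207).

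Pdlim7, another LIM adapter of stress fibres, read 8.56, 8.26 and 8.46, then 8.17, 8.12 and 7.78 in bFGF-JB6, a fall of 0.40 (SE 0.11, adjusted p = 0.0127). It was not called without monolayer array 1 (−0.34, adjusted p = 0.0577) or without both arrays with raised 3′ signal (−0.22, adjusted p = 0.106). In RT101 it read 8.16 and 8.19, then 8.10, 8.06 and 7.998, but its second probe set was called higher in RT101 colonies (0.74, adjusted p = 6.26e-05). Vcl, Zyx and Actn4, the focal adhesion proteins vinculin and zyxin and a second alpha-actinin, changed by −0.19 to 0.02 and were not called in either line.

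Among genes for proteins that nucleate, cap, sever or bind subunits, Pfn2 rose in both lines. Pfn2, a profilin, delivers actin subunits to growing ends. It read 7.91, 7.81 and 7.93 in bFGF-JB6 monolayers and 8.66, 8.41 and 8.89 in colonies, and 7.64 and 7.80, then 9.47, 9.29 and 9.33 in RT101. All colony arrays of both lines exceeded all monolayer arrays. The rise was 0.77 in bFGF-JB6 (1.7-fold; SE 0.11, adjusted p = 0.000167) and 1.64 in RT101 (3.12-fold; SE 0.13, adjusted p = 3.36e-07), larger in RT101 by 0.87 (SE 0.17, adjusted p = 0.00154). All 3 Pfn2 probe sets were called higher in colonies of both lines.

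The more widely expressed profilin, Pfn1, read 10.73, 11.03 and 11.34, then 10.73, 10.56 and 10.09 in bFGF-JB6, and 10.23 and 10.68, then 10.73, 10.60 and 10.66 in RT101. Its fall of 0.57 in bFGF-JB6 (SE 0.18, adjusted p = 0.0259) was lost without monolayer array 2 (0.0614) or 3 (0.125) or colony array 3 (0.1). The change in RT101 was 0.21 (adjusted p = 0.504), and the difference of 0.78 (SE 0.26, adjusted p = 0.0436) was lost without any of 8 arrays (adjusted p = 0.0551 to 0.231). Capg, a gelsolin relative that caps filament ends without severing, read 10.10 to 10.30 on all 6 bFGF-JB6 arrays. In RT101 it read 9.003 and 9.07 in monolayers and 9.73, 9.72 and 9.74 in colonies. Capg rose by 0.69 in RT101 (SE 0.09, adjusted p = 2.97e-05), its bFGF-JB6 change was 0.06 (SE 0.08, adjusted p = 0.652), and they differed by 0.64 (SE 0.12, adjusted p = 0.000976). Cfl1 and Cfl2, the cofilins that sever filaments, Diaph1, a formin, and Lmod1, a leiomodin nucleator, changed by −0.22 to 0.20 and were not called in either line.

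The ERM proteins ezrin, moesin and radixin (Ezr, Msn, Rdx) tie filaments to the plasma membrane. The changes of these 3 genes in colonies were −0.13 to 0.24, and none was called in either line. For Rdx, both other probe sets were called lower in bFGF-JB6 colonies (−0.41 and −0.75).

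Among the small GTPases, the ROCK kinases and SRF, Rnd3 rose in both lines. Srf, Rhob and Rock1 fell in RT101, while the bFGF-JB6 changes of their brightest probe sets did not pass. Rnd3, an atypical GTPase that opposes RhoA and ROCK, read 6.60, 6.63 and 6.64 in bFGF-JB6 monolayers and 7.31, 7.13 and 7.47 in colonies. RT101 cells read 7.22 and 7.22, then 7.69, 7.61 and 7.69, and neither line overlapped between states. The rises were 0.68 (SE 0.09, adjusted p = 6.63e-05) and 0.44 (SE 0.10, adjusted p = 0.0036), and their difference was −0.24 (SE 0.14, adjusted p = 0.231).

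Srf read 6.98, 6.47 and 6.55 in bFGF-JB6 monolayers and 6.41, 6.46 and 6.57 in colonies, with overlap, and 7.72 and 7.62, then 7.18, 7.15 and 7.15 in RT101, without. It fell by 0.51 in RT101 (SE 0.13, adjusted p = 0.00717; adjusted p = 0.0699 without RT101 monolayer array 1), with a change of −0.19 in bFGF-JB6 (SE 0.12, adjusted p = 0.259). These changes differed by −0.32 (SE 0.17, adjusted p = 0.204), so a difference between the lines was not shown for Srf.

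Rhob, an endosomal GTPase that is induced rapidly by stimuli, read 8.84, 8.66 and 8.82, then 9.15, 9.24 and 8.76 in bFGF-JB6. Its RT101 values were 9.39 and 9.56 in monolayers and 8.87, 8.57 and 8.64 in colonies. Rhob fell by 0.78 in RT101 (SE 0.14, adjusted p = 0.000595), changed by 0.28 in bFGF-JB6 (adjusted p = 0.119; 0.42 with adjusted p = 0.00846 without colony array 3), and the lines differed by −1.06 (SE 0.19, adjusted p = 0.000757). Rock1, a kinase that activates myosin II, read 8.61, 8.39 and 8.32, then 8.49, 8.39 and 8.81 in bFGF-JB6, and 9.30 and 9.08, then 8.71, 8.76 and 8.80 in RT101. Its fall of 0.44 in RT101 (SE 0.13, adjusted p = 0.0193) was lost without RT101 monolayer array 1 (0.193) or colony array 1 (0.0583). Its difference of −0.56 (adjusted p = 0.0283) was lost without any of bFGF-JB6 monolayer arrays 2 and 3, RT101 monolayer array 1 and RT101 colony arrays 1 and 2 (adjusted p = 0.0529 to 0.146). Of 3 other Rock1 probe sets, 1 was called lower in bFGF-JB6 colonies and 2 were called lower in RT101 colonies. Rhoa, the GTPase upstream of ROCK and of the formins, rose by 0.28 in RT101 (SE 0.10, adjusted p = 0.0405). That call was lost without any 1 of 7 arrays (adjusted p = 0.0541 to 0.19). Rhoc changed by 0.13 and 0.15 and was not called.

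Several calls in RT101 thus rested on monolayer array 1, without which a single array stands for RT101 monolayers and is assumed to vary like the other groups. Without it, 5 genes rose and 5 fell in RT101 colonies, in place of 8 and 8, and Acta2, Rhoa, Rock1, Srf, Tpm1 and Tpm2 were no longer called.

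The other genes of the pathway are given from 6 lists of 91 genes that hold none of the 41, of which 74 were measured. In bFGF-JB6 colonies 7 rose and 16 fell, together 31.1%, near the 29.4% of all genes called (14.1% up and 15.3% down). In RT101 20 rose and 15 fell, together 47.3%, against 32.4% of all genes (17% up and 15.4% down) and 51.9% of genes at or above the median level. The counts of the single lists below stand beside these same shares, and none was tested against them. Immediate early genes, which SRF drives with TCF cofactors in response to growth factors, fell in bFGF-JB6 colonies in 5 of 8 and rose in none (15.3% and 14.1% of all genes), while in RT101 3 rose and 1 fell (17% and 15.4%). Fos fell by 1.34 in bFGF-JB6 (SE 0.08, adjusted p = 2.95e-08) and rose by 0.95 in RT101 (SE 0.09, adjusted p = 1.47e-06). Egr2 went the same ways, −0.97 (SE 0.13, adjusted p = 6.2e-05) and 1.25 (SE 0.14, adjusted p = 1.28e-05). Egr1 fell by 0.99 in bFGF-JB6 (adjusted p = 7.08e-06), Fosb fell by 0.71 there (adjusted p = 0.0371), and in RT101 Junb rose by 0.72 and Mcl1 fell by 0.35. The Fosb call was lost without monolayer array 1 (−0.32, adjusted p = 0.0618) or any 1 of the 3 colony arrays, or with array weights (−0.48, adjusted p = 0.151), and the Mcl1 call without either RT101 monolayer array (0.0604 and 0.058).

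Of 16 other MRTF and SRF targets measured, 1 rose and 4 fell in bFGF-JB6 colonies, together near the share of all genes (29.4%). In RT101 3 rose and 7 fell (17% and 15.4% of all genes). Smtn, which fell in both lines, is also among the smooth muscle markers above. Ankrd1, a mechanically induced nuclear and sarcomeric protein, fell by 1.20 in bFGF-JB6 (SE 0.14, adjusted p = 1.67e-05) and by 3.62 in RT101 (SE 0.15, adjusted p = 1.14e-09), the largest change of any gene named here in either colony comparison. Ccn1, a secreted matrix protein, fell by 1.98 in RT101 (SE 0.15, adjusted p = 3.72e-07). Pdlim1, Tpm3 and Smtn fell by 0.79, 0.52 and 0.49 in bFGF-JB6. Lima1, which cross-links and stabilises filaments, and Csrp1, a LIM protein of stress fibres, went up in RT101 by 1.29 and 1.27. Ankrd1 and Ccn1 are also targets of YAP, which these lists do not separate from SRF.

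Of 17 filament turnover genes, 6 rose and none fell in RT101 colonies (17% and 15.4% of all genes). In bFGF-JB6 colonies 2 rose and 2 fell, a smaller share than that of all genes (29.4%). Gsn, gelsolin, which severs and caps filaments, rose by 1.95 in RT101 (SE 0.13, adjusted p = 1.19e-07), with Lasp1 (0.69), Capzb (0.43) and Dstn (0.42). In bFGF-JB6 Tmsb4x, which sequesters actin subunits, fell by 0.59 (adjusted p = 7.41e-05) and the capping subunit Capza1 fell by 0.50, while Capzb and Dstn rose by 0.35 and 0.26. The Dstn call was lost without any of bFGF-JB6 monolayer arrays 2 and 3 and colony arrays 2 and 3, and that of Capzb with the mean of its probe sets (0.20, adjusted p = 0.162). Of 12 nucleation genes, 4 fell and none rose in bFGF-JB6 colonies (15.3% and 14.1% of all genes). Those that fell were Diaph3, Cttn, Arpc5l and Wasf2 (−0.50 to −0.36). In RT101 3 rose and 3 fell. With the mean of their probe sets Cttn (−0.23, adjusted p = 0.0991) and Arpc5l (−0.24, adjusted p = 0.0896) were not called in bFGF-JB6 colonies. Arpc5l and Diaph3 fell in both lines, by 1.02 and 0.85 in RT101, where the Arp2/3 subunits Arpc4 and Arpc1a rose by 0.75 and 0.65. Arpc4 was not called without RT101 monolayer array 1 (adjusted p = 0.202), nor Diaph3 in bFGF-JB6 without monolayer array 3 or colony array 2.

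Among 15 regulators of myosin and of small GTPases, 3 rose and 1 fell in bFGF-JB6 colonies (14.1% and 15.3% of all genes). In RT101 4 rose and 3 fell (17% and 15.4%). Arhgef2, an exchange factor that activates RhoA, fell by 1.76 in RT101 (SE 0.11, adjusted p = 5.85e-08), with Arhgap5 (−0.92) and the light chain Myl6 (−0.60). Rnd2, a close relative of Rnd3, rose by 1.24 in RT101 (SE 0.11, adjusted p = 1.86e-06) and by 0.40 in bFGF-JB6. Arhgef12, a further activator of RhoA, rose by 0.64 in bFGF-JB6 colonies, with Ppp1cb at 0.34, and Myl12a fell by 0.35. The Myl12a call was lost without any of bFGF-JB6 monolayer arrays 2 and 3 and colony arrays 1 and 2. That of Ppp1cb was lost without monolayer array 3. None of these 3 was called when probe sets were averaged: Arhgef12 gave 0.27 (adjusted p = 0.0766), Ppp1cb 0.26 (adjusted p = 0.226) and Myl12a −0.02 (adjusted p = 0.902). Of 6 SRF cofactors, Myocd rose in bFGF-JB6 (0.41, at the weak end of the scale, and lost without monolayer array 3 or colony array 2 or 3), and in RT101 Elk3 rose by 0.46 and Elk4 fell by 0.38. Elk4 was not called without RT101 monolayer array 2 or colony array 3, or with the mean of its probe sets (−0.13, adjusted p = 0.329). Neither Mrtfa nor Mrtfb, the actin-sensing cofactors, was called in either line.

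Between the lines the 41 genes differed in more cases than they did between states. In monolayers 14 were higher and 11 lower in RT101, together 61%, when 44.4% of all genes were called (23.2% higher and 21.2% lower). In colonies 14 were higher and 10 lower, 58.5% against 43.3% of all genes (22.7% and 20.7%). Of all genes at least as bright as the median, 66.5% and 64.5% were called, and of the 34 genes of the set that bright, 67.6% and 61.8%, which is close to them. Array groups of the lines did not overlap for 35 of 41 in monolayers (61.1% of all genes) and for 25 in colonies (50.4%). Within lines the states did not overlap for 14 in bFGF-JB6 (37.8%) and 29 in RT101 (56.1%).

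Higher in RT101 in both states were Acta2, Myl9, Vcl, Zyx, Fhl2, Cfl2, Rdx, Rnd3 and Srf. Lower in both were Actg1, Tpm1, Tpm4, Capg, Msn and Rhoc. Flna and Rhob were higher in RT101 monolayers (0.45 and 0.70) and lower in RT101 colonies (−0.47 and −0.36). In neither state were 9 genes called, Actb among them (0.03 and 0.07).

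Myl9, read by its only probe set, had the widest gap of the set. It was 3.38 higher in RT101 monolayers (10.4-fold, SE 0.15, adjusted p = 4.6e-10) and 2.54 higher in RT101 colonies (5.83-fold, SE 0.13, adjusted p = 2.51e-09). Acta2 was 2.12 higher in monolayers (SE 0.21, adjusted p = 1.44e-06) and 0.69 in colonies (SE 0.19, adjusted p = 0.00716), so for both genes the gap was narrower in colonies. The second, dim Acta2 probe set gave −0.15 and −0.07, neither called. Srf was 1.003 higher in monolayers (SE 0.13, adjusted p = 2.1e-05) and 0.68 in colonies (SE 0.12, adjusted p = 0.000254), and its second probe set was also called higher in both (0.62 and 0.51). Cfl2 read 9.62, 9.59 and 9.82, then 9.52, 9.35 and 9.74 in bFGF-JB6, and 10.60 and 10.59, then 10.46, 10.44 and 10.43 in RT101. Its gap was near the same in both states, 0.92 (SE 0.11, adjusted p = 1.41e-05) and 0.91 (SE 0.10, adjusted p = 5.39e-06), as was that of Zyx, 0.78 and 0.70. The second probe set of Zyx was also called higher in both states, and that of Cfl2 was called in neither.

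On the other side, Tpm1 was 1.59 lower in RT101 monolayers (SE 0.17, adjusted p = 4.15e-06) and 0.80 lower in RT101 colonies on the same scale (−0.80, SE 0.16, adjusted p = 0.000762), with all 3 of its probe sets called lower in both states. Capg gave −1.12 (SE 0.09, adjusted p = 1.38e-07) and −0.49 (SE 0.08, adjusted p = 0.000134). Actg1 gave −0.23 (adjusted p = 0.0342) and −0.25 (adjusted p = 0.0135), and its monolayer call was lost without any of bFGF-JB6 monolayer arrays 2 and 3, RT101 monolayer arrays 1 and 2 and RT101 colony arrays 2 and 3. Cnn2 was lower in RT101 monolayers (−0.84, adjusted p = 0.000227) and not called in colonies (0.19). Tpm2, Actn1 and Pfn2 were higher in RT101 colonies (0.63, 0.73 and 0.71) and not called in monolayers. Neither of the 2 other Actn1 probe sets was called in colonies, and the Actn1 call there was lost under some setting other than the 2-fold minimum. A dimmer Tpm2 probe set was called lower in RT101 monolayers (−0.49, adjusted p = 0.0118).

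Genes with several probe sets gave like directions between the lines where both were called. None of the brightest probe sets called in monolayers (14 genes) or colonies (15 genes) had another called the opposite way. In exceptions of another kind, a dimmer probe set was called where the brightest was not. These were Tpm2 and Myh9 in monolayers, and Cnn3, Tagln2, Myh9, Pdlim7, Ezr and Rock1 in colonies. For Tagln2 the dimmer probe set gave 0.29 (adjusted p = 0.0318) in colonies, opposite in sign to the brightest (−0.01). For Myh9, the 3 dimmer probe sets were all called lower in RT101, with differences of −0.53 to −0.44 in monolayers and −0.92 to −0.69 in colonies, while the brightest gave 0.15 and −0.36 and was not called. For Ezr, the second probe set read 2.34 to 2.64 in bFGF-JB6 and was called 2.07 higher in RT101 monolayers and 2.68 higher in RT101 colonies, beside 0.52 (called) and 0.27 (not called) for the brightest.

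**Figure D4:**
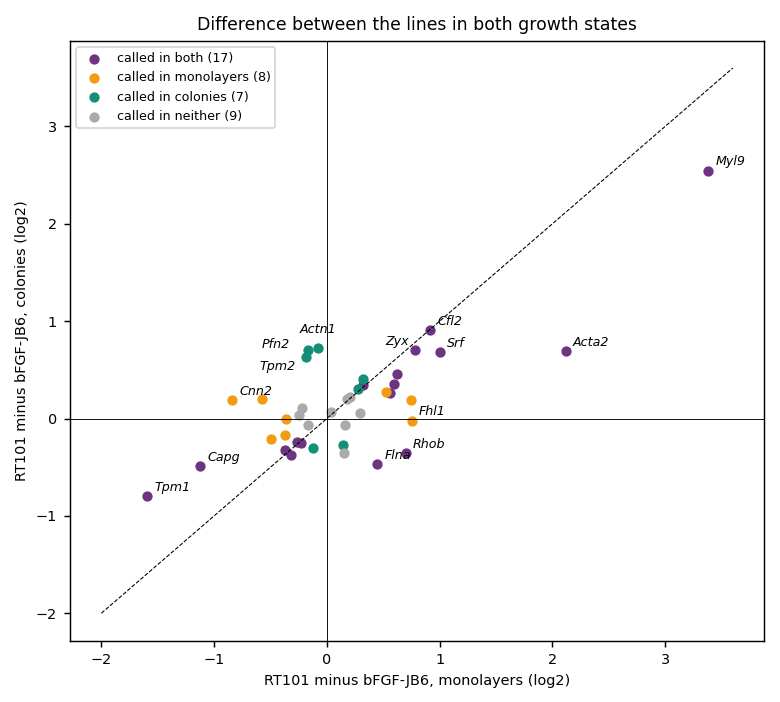
Log2 difference RT101 minus bFGF-JB6 in colonies (y axis) against that in monolayers (x axis) for the 41 genes; each point is a gene, with names for the widest gaps. Myl9 stands alone at 3.38 and 2.54, and Flna and Rhob lie where monolayers are higher and colonies lower in RT101.

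The calls in some of these comparisons moved with single arrays. The number lower in RT101 monolayers was 11 with all arrays and 6 to 13 with 1 left out, changing by more than 1.5 times without bFGF-JB6 monolayer array 2 or 3 or RT101 monolayer array 1 or 2. The number lower in RT101 colonies went from 10 to 6 without RT101 colony array 3. Myl9, Acta2, Srf, Cfl2, Zyx, Rdx, Rnd3, Tpm1 and Capg kept their calls in both states without any 1 array. Those of Vcl, Fhl2, Actg1, Tpm4, Msn, Rhoc, Flna and Rhob were lost in at least 1 state (adjusted p = 0.0508 to 0.239). In monolayers these losses came without bFGF-JB6 monolayer array 1 (Vcl, Rhoc), 2 (Actg1, Flna, Rhoc, Tpm4) or 3 (Actg1, Flna, Tpm4, Vcl), RT101 monolayer array 1 (Actg1, Flna, Msn, Rhoc, Vcl) or 2 (Actg1, Flna, Rhoc, Tpm4, Vcl), or RT101 colony array 2 (Actg1, Vcl) or 3 (Actg1). In colonies they came without bFGF-JB6 colony array 1 (Rhob, Vcl), 2 (Flna, Rhob, Rhoc, Vcl) or 3 (Fhl2, Rhoc), or RT101 colony array 1 (Fhl2, Rhoc), 2 (Fhl2, Rhob, Rhoc) or 3 (Flna, Rhob, Vcl). The Ezr call was lost without bFGF-JB6 monolayer array 1 or 3 or RT101 monolayer array 1.

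**Figure D5:**
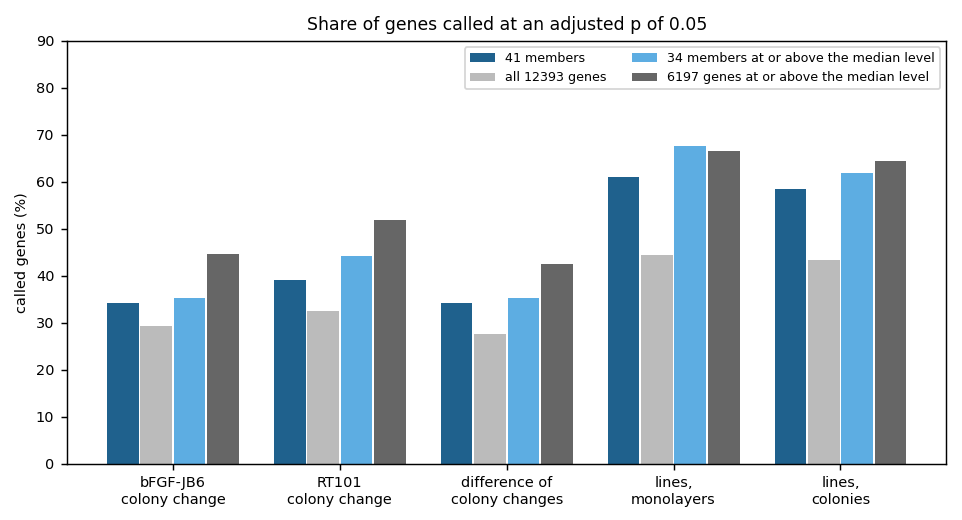
Percent of genes called (y axis) in each of the 5 comparisons (x axis) for the 41 genes, all genes, and the 34 of the set and all genes at or above the median level; bars are percentages with no error. The 41 lie above all genes in each comparison, at 34.1% against 29.4% for bFGF-JB6 colonies. The 34 lie below all genes at or above the median level except between the lines in monolayers, at 67.6% against 66.5%.

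Last, the genes were set against the promoter boxes shown above. Of the 9 with a CArG box, 2 rose and 2 fell in bFGF-JB6 colonies (14.1% and 15.3% of all genes), and 1 rose and 3 fell in RT101 colonies (17% and 15.4%). Of the 27 measured genes whose windows held no box, 4 rose and 6 fell, and 7 rose and 4 fell. In RT101 monolayers 6 of the 9 were higher and 2 lower than in bFGF-JB6 (23.2% and 21.2% of all genes), and in colonies 5 were higher and 1 lower (22.7% and 20.7%). Without a box the same counts were 7 and 9 in monolayers, and 9 and 9 in colonies. The genes with a box that were higher in RT101 monolayers were Srf, Myl9, Fhl1, Fhl2, Rnd3 and Vcl, and those that were lower were Actg1 and Cnn2. These counts are a description of few genes, and no difference between genes with and without a box was tested.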

How the data were processed

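Total RNA was hybridised to Affymetrix arrays, 1 sample per array, 11 in all. The authors deposited a log2 signal for each probe set, and the submitters' processing notes name RMA without a version. RMA corrects background, equalises the distributions of the arrays and summarises probes, and it understates folds of weak signals. Scanner settings are not given in the sources used here. Values were used as deposited, with no filter, and arrays carry no counts, so their number limits the precision.

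Probe sets were named through the platform annotation: 20380 carried 1 symbol, 691 several and 1555 none, besides 64 controls, and only those with 1 symbol were used. Each of 12393 genes was read by the probe set with the highest mean over all arrays. limma 3.58.1 in R 4.3.3 was fitted to all 11 arrays with group as the only term (7 residual and 6.12 prior degrees of freedom). The contrasts were colonies against monolayer in each line, their difference, and the lines against each other in each state. The threshold was 0.05 for p adjusted by Benjamini and Hochberg's method over all 12393. SE is limma's moderated standard error. The procedure was tested on simulated data. Replicate numbers were not fitted. Deviations from group means of same-numbered arrays correlated at 0.32, 0.111 and 0.225 between the colony groups of the 2 lines. Arrays of different numbers were not correlated, so these values do not show that the numbers pair the samples. Of the other pairs of groups, only the monolayers and colonies of bFGF-JB6 held 3 pairs, at −0.245 to 0.0763.

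Values per array were given for Srf, Acta2, Actb and Actg1, for up to 7 called genes per direction with the largest change in each colony comparison and their difference, and for up to 4 per direction between lines. Myh9 was added after its values were seen. Of each further list, up to 4 called genes per colony comparison were named. Members and lists were chosen with earlier results of these data known. Probe sets whose identifiers carry s or x suffixes (Acta2, Actg1, Srf, Cald1, Rhoa, Rhoc, Cnn3, Cfl1, Ezr) can read near-identical sequences.

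The alternatives were a replicate block, averaged probe sets in place of the brightest, separate tests of every probe set, bright genes only, array weights, a robust variance trend, scaling by the median or by cyclic loess, fits of the compared groups only, a 2-fold minimum, omission of the 2 arrays with raised 3′ signal, and omission of each array in turn. Promoter windows came from RefSeq (GRCm38.p6), and the CArG box was searched by script on both strands. Plots used matplotlib 3.10.9 in Python 3.11.15.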

Additional observations from a re-analysis of the deposited data

Results flagged for a closer look

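The colony change differed between RT101 and bFGF-JB6, by limma's test of the difference itself at an adjusted p of 0.05, for 14 of the 41 genes and for further genes named from the pathway lists. Differences below are the RT101 colony change minus the bFGF-JB6 colony change, on the log2 scale. What lies behind them was not tested, and line and bFGF treatment cannot be told apart.

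Among the actin and SRF genes the change was higher in RT101 for Cnn2 (1.03), Pfn2 (0.874), Tpm2 (0.811), Actn1 (0.804), Tpm1 (0.797), Pfn1 (0.776) and Capg (0.636). It was lower in RT101 for Acta2 (−1.42), Rhob (−1.06), Flna (−0.917), Myl9 (−0.837), Fhl1 (−0.776), Rock1 (−0.561) and Pdlim5 (−0.409). The calls of Actn1, Pdlim5, Pfn1, Rock1 and Tpm1 were lost under at least 1 setting other than the 2-fold minimum.

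Among the list genes the widest differences with a higher change in RT101 were those of the immediate early genes Fos (2.29) and Egr2 (2.23) and of gelsolin, Gsn (1.91). Lima1 (1.26), Arpc4 (1.11), Egr1 (1.01), Tmsb4x (0.961), Lasp1 (0.951), Rnd2 (0.84), Csrp1 (0.836) and Junb (0.8) followed. Smaller differences the same way were found for Capza1 (0.682), Arpc1a (0.655), Cttn (0.519), Wasf2 (0.49) and Elk3 (0.457). The change was lower in RT101 for Ankrd1 (−2.42), Ccn1 (−1.9), Arhgef2 (−1.81), Arhgap5 (−0.79), Ppp1cb (−0.636) and Arpc5l (−0.621). Arpc4 and Csrp1 lost the call without RT101 monolayer array 1 (adjusted p = 0.0682 and 0.0746). Elk3 lost it without any of 7 arrays (adjusted p = 0.0543 to 0.0868), with median centring (0.0603) or with cyclic loess (0.0551). With the mean of their probe sets Cttn (0.36, adjusted p = 0.085) and Ppp1cb (−0.55, adjusted p = 0.086) were not called.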

How the results depend on the processing

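With a 2-fold minimum the genes called up and down were 1 and 0 in bFGF-JB6 colonies, 1 and 1 in RT101 colonies, 1 and 2 for the difference, 3 and 2 between lines in monolayers and 1 and 0 in colonies. Every other setting that kept all arrays, and omission of both arrays with raised 3′ signal, left these 10 counts within 1.5 times. Leaving out 1 array gave 4 to 6 up and 7 to 9 down in bFGF-JB6 colonies, 5 to 8 and 5 to 9 in RT101 colonies, 5 to 8 and 5 to 8 for the difference, 11 to 15 and 6 to 13 between lines in monolayers, and 11 to 15 and 6 to 10 in colonies. With averaged probe sets Actn1 turned from −0.34 to 0.09 (0.0888) and Myocd from 0.41 to −0.00 (−0.00495) in bFGF-JB6 colonies. Calls kept under all settings but the 2-fold minimum numbered 8 of 14 in bFGF-JB6 colonies, 9 of 16 in RT101 colonies and 9 of 14 for the difference. Between the lines they numbered 15 of 25 in monolayers and 13 of 24 in colonies. Genes below the median level have no value in the fit of bright genes, so that setting counted only for the brighter ones. The cause of the losses was not tested. Median centring and cyclic loess moved the median change by −0.06 to 0.05.

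Replicate numbers in the titles and letters in the descriptions disagree for RT101 monolayers. By title number, every same-numbered pair correlated positively in its deviations only between the colony groups of the 2 lines. Different-numbered arrays were not correlated, so pairing is not shown. Between the other groups the correlations were −0.253 to 0.0763 by title number and −0.245 to 0.174 by letter, where the monolayers of the lines gave 0.174 and 0.148 by letter and −0.0313 and −0.174 by number over just 2 pairs. With a replicate block from the titles, 6 genes rose and 8 fell in bFGF-JB6 colonies and 8 rose and 9 fell in RT101 colonies; with the letters, 6 and 9, and 7 and 8. The block ended the Pfn1 difference (adjusted p = 0.0613 and 0.0759), with the letters the Rhoa call in RT101 (0.0624) and, between lines in monolayers, those of Pfn1 (0.0573) and Vcl (0.0781), and with the titles those of Actg1 (0.0723) and Rhoc (0.0568). Between the lines in colonies, the block left all 14 higher and 10 lower calls in place. A fit of only the compared groups gives no value for the difference. Weak signals limit Cnn1, Fhl1 and Actg2.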

Other observations

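The regulatory light chain of myosin II is encoded by Myl9, Myl12a and Myl12b, and Myl9 and Myl12b differed between the lines in opposite directions. The genes were set side by side after their values were seen. Myl12b read 8.73, 8.86 and 8.96 in bFGF-JB6 monolayers and 8.84, 8.69 and 8.72 in their colonies, against 5.03 and 4.99 in RT101 monolayers and 4.57, 4.90 and 4.85 in RT101 colonies. No array of 1 line came near the other, and the differences, RT101 minus bFGF-JB6, were −3.84 in monolayers (SE 0.11, adjusted p = 1.25e-10) and −3.98 in colonies (SE 0.10, adjusted p = 3.07e-11) in limma's fit of all probe sets, opposite in sign to those of Myl9 (3.38 and 2.54). Myl12a read 11.11 to 11.71 in bFGF-JB6 and 11.81 to 12.16 in RT101 by its brightest probe set, 0.58 higher in RT101 colonies (adjusted p = 0.00111), while a dimmer Myl12a probe set was called lower there (−0.42, adjusted p = 0.0249). A second Myl12b probe set read 2.80 to 3.30 on all 11 arrays and was called slightly higher in RT101 monolayers (0.29, adjusted p = 0.0273). The Myl12b gap therefore rests on 1 probe set, as does that of Myl9, which has no other.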
